A study of Mus musculus with 2 samples.

Results

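The 4 miRNAs described here, mmu-miR-146a-5p, mmu-miR-146b-5p, mmu-miR-155-5p and mmu-miR-132-3p, are miRNAs linked to inflammation whose levels were read in exosomes released by bone marrow-derived mesenchymal stem cells (BMSCs) of the mouse. They were taken by name from the 1881 mouse miRNAs on the array, and each had 2 probes. BMSCs are multipotent stromal cells of the marrow, and exosomes are small vesicles that cells release into their medium. The mBMSCs came from C57BL/6 mice through a commercial supplier and were grown with 10% fetal calf serum, exosome-depleted before isolation. The normoxia group was exosomes from cells in normoxia, and the hypoxia group was exosomes from cells kept at 0.2% oxygen. In both groups the medium was collected after 72 h. Each group was 1 sample on 1 array with 1 colour (Cy3), so no spread between biological replicates exists, no test was run, and every difference below is a difference between these 2 arrays. SD and standard error (SE) are over replicate spots inside an array and leave out differences between cultures, isolations and labellings.

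A miRNA is a short RNA that pairs with target mRNAs mainly through its seed, here bases 2 to 8 from the 5′ end, and lowers their translation or stability. miR-146a and miR-146b are known as brakes on Toll-like receptor and interleukin-1 signalling, with Traf6 and Irak1 among the known targets. miR-146a is itself induced by NF-κB. miR-155 is induced in activated macrophages and lymphocytes and favours inflammatory responses, with Socs1 among its known targets. miR-132 and its cluster partner miR-212 are induced through CREB, and miR-132 is known to restrain inflammation through the acetylcholinesterase mRNA. Mesenchymal stem cells are known for dampening immune responses, and their vesicles can carry miRNAs to other cells.

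The mature sequences show which of these miRNAs can be expected to read the same seed matches. They are given from RefSeq (GRCm38.p6) 5′ to 3′, with the seed in capitals, and miR-212-3p is included because it has the seed of miR-132-3p.
mmu-miR-146a-5p: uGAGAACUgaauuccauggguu
mmu-miR-146b-5p: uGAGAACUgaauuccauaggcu
mmu-miR-132-3p: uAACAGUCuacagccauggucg
mmu-miR-212-3p: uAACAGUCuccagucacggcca
mmu-miR-155-5p: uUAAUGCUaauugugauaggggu

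miR-146a-5p and miR-146b-5p shared the seed and 20 of 22 bases. Counted from the 5′ end, the changes from miR-146a-5p to miR-146b-5p were G18A and U21C, both near the 3′ end. The same pair is shown with the differing bases in capitals.
mmu-miR-146a-5p: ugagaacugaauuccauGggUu
mmu-miR-146b-5p: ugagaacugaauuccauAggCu

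Of the miRNAs on the array with a mature sequence in the RefSeq table (1608 of the 1881 names), no other carried the seed of the miR-146 pair, only miR-212-3p carried that of miR-132-3p, and none carried that of miR-155-5p. miR-132-3p and miR-212-3p had 17 of 22 bases in common. The hairpins of miR-132 and miR-212 are neighbours, and the others lie at separate loci. In GRCm38.p6, the hairpin of miR-146a (gene Mir146) is at chr11:43374397-43374461 on the minus strand and overlaps no other gene of the RefSeq table. That of miR-146b is at chr19:46342762-46342870 on the plus strand, inside the span of the lncRNA gene Gm36493. That of miR-155 is at chr16:84714140-84714204 on the plus strand, inside the span of its host lncRNA gene Mir155hg. The hairpin of miR-132 is at chr11:75173682-75173747 on the plus strand, 203 bases after that of miR-212 at chr11:75173388-75173478, between Hic1 and Ovca2. The array design names the older mm9 build, and no measurement here was placed by coordinates.

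The processed signal is the fluorescence of a spot after the scanner software subtracted background and a spatial trend. It is a linear intensity and can fall below 0. It was compared between arrays within a probe, since probes differ in brightness for the same amount of RNA. For the marker lists it was summed over the miRNAs of a list. Each miRNA entered with the probe that was brighter on that array, which can differ between the arrays. A probe counted as detected if more than 50% of its kept spots passed the software's flag for well above background, and a miRNA if any of its probes did. On this rule 225 miRNAs were detected in normoxia, 199 in hypoxia and 180 on both arrays, which is 9.57% of the 1881. The lowest signal of a detected probe was 14.5 in normoxia and 13.5 in hypoxia. The arrays shared 1 slide and 1 scan, at neighbouring positions, so slide position and condition cannot be told apart. The software marked the hypoxia array for evaluation, with a median spot-to-spot coefficient of variation of 15.8% against 9.68% in normoxia and a labelling spike-in signal outside its range. The hypoxia marker miR-210-3p, a known target of HIF-1, had a log2 difference (hypoxia minus normoxia) of 5.29, the highest of the 180. To compare the arrays, each was divided by its own 75th percentile, taken over probes detected in normoxia and in hypoxia alike.

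Of the 4 miRNAs, 3 were detected on both arrays. miR-146a-5p was higher in hypoxic exosomes, miR-146b-5p lower, and miR-132-3p close to the same level on both arrays, while miR-155-5p did not pass detection on either. In these bulk preparations, fewer exosomes that carry a miRNA and fewer copies per exosome cannot be told apart.

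miR-146a-5p was 2.44-fold higher in hypoxic exosomes, a log2 difference of 1.29 ± 0.061 (SE over spots). In normoxia, the 14 kept spots of its brighter probe had processed signals from 161 to 207, with a median of 192. In hypoxia, the 15 spots of the same probe lay between 260 and 422, with a median of 368. Every hypoxic spot was thus brighter than every normoxic spot, before and after scaling. The means were 189.5 ± 13.1 (SD over 14 spots) and 371 ± 43.3 (SD over 15 spots). For the dimmer probe the normoxic mean was 22.4 ± 4.94 and the hypoxic mean 44.0 ± 8.74 (SD over 15 spots on each array). Its spots overlapped before scaling, where the highest normoxic spot was at 30.4 and the lowest hypoxic spot at 28.9, and did not overlap after scaling. Although the normoxic signal of the dimmer probe was near the detection limit, both probes gave a log2 difference of 1.29. miR-146a-5p is among the miRNAs that the study singled out from the same arrays, so its value is no independent evidence of its direction.

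miR-146b-5p was 2.68-fold lower in hypoxic exosomes, a log2 difference of −1.42 ± 0.14 (SE over spots) that rests on 1 probe. In normoxia the 15 spots of this probe lay between 70.8 and 93.4, with a median of 84.4. In hypoxia the 15 spots lay between 2.71 and 46.8, with a median of 27.1. Every normoxic spot was brighter than every hypoxic spot, before and after scaling. The means were 84.6 ± 7.92 and 25.3 ± 9.56 (SD over 15 spots each), and 14 of the 15 hypoxic spots were well above background. The hypoxic spots were the more scattered, with a coefficient of variation of 37.7% against 9.37% in normoxia. The other probe had no spot well above background. Its mean was 10.6 ± 2.41 in normoxia (SD over 15 spots) and 3.13 ± 3.68 in hypoxia (SD over 14 spots), and it gives no fold.

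**Figure D1:**
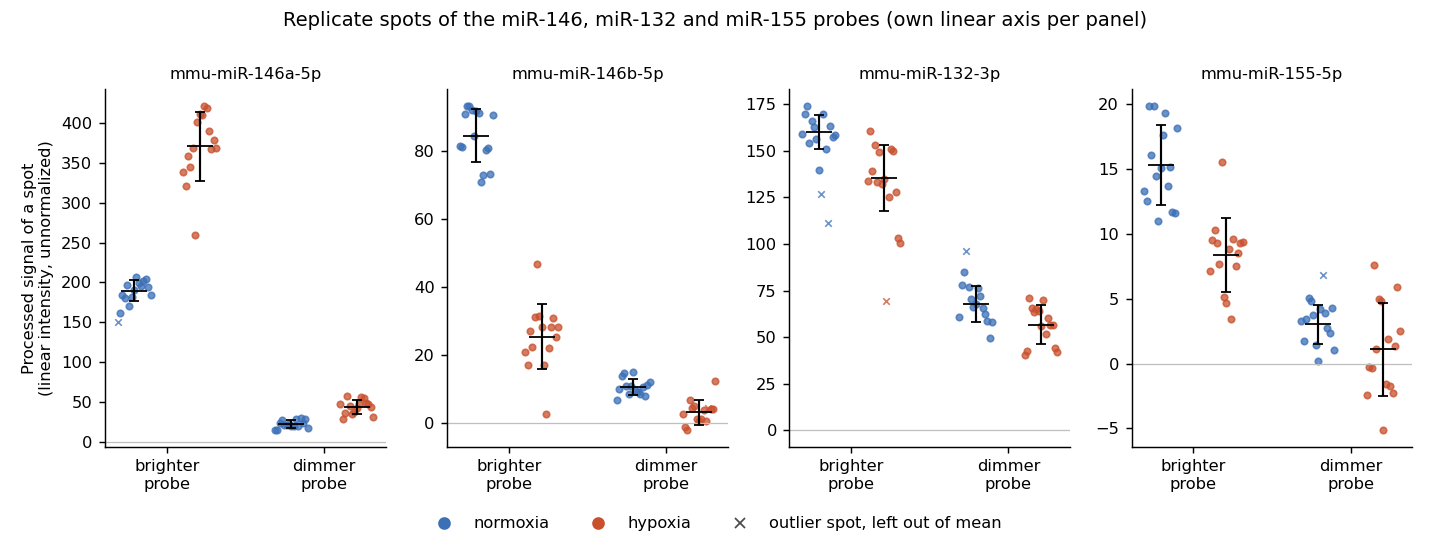
Processed signal (linear intensity, unnormalized) of every replicate spot on the normoxia and hypoxia arrays, for the brighter and the dimmer probe of each of the 4 miRNAs; black bars are the mean ± SD of the kept spots, crosses are outlier spots left out, and each panel has its own axis. The brighter miR-146a-5p probe is higher in hypoxia (371 against 189.5) and the brighter miR-146b-5p probe lower (25.3 against 84.6) with no overlap of kept spots, while kept spots of both miR-132-3p probes and both miR-155-5p probes overlap.

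The miR-146 pair thus went in opposite directions although the mature sequences share the seed and differ at 2 bases. The log2 difference of miR-146a-5p lay 2.71 ± 0.16 (SE over spots) above that of miR-146b-5p, which is a 6.54-fold change in the ratio of their signals between the arrays. A single scaling factor per array moves both alike and leaves this gap as it is, and quantile normalization gave 2.61. Normexp background correction of the median pixel signal, with an offset of 50, gave 1.23, and which of these steps moved the value was not tested. The files do not give the probe sequences, and how much of each signal the other member of this near-identical pair contributes was not tested.

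The gap was set beside those of other miRNAs with a common seed. Among miRNAs detected on both arrays and with a known mature sequence, 70 pairs shared a seed, from 16 seeds and 48 miRNAs, so that many pairs have a miRNA in common. The 69 other pairs had gaps from 0.0062 to 2.33 with a median of 0.37. None of them was further apart than the miR-146 pair. This was also so with quantile normalization, normexp, the median of spots, the brightest probe and the software's sum, and scaling by other single factors cannot change it. The next gap, 2.33, was that of miR-130a-3p and miR-721. Under normexp the lead was small, with a gap of 1.23 against 1.12 for the other pair furthest apart. With the 75th percentile over probes detected on both arrays, opposite signs occurred in 26 of the 69 other pairs. In none of them were both members at least 2-fold apart between the arrays in opposite directions. The miR-146 pair met this there, but not in every setting. Without normalization miR-146a-5p was at 0.97, and with the 75th percentile of all probes miR-146b-5p was at −0.81. Under normexp the pair was at 0.81 and −0.42. The counts over pairs come from 2 arrays and describe these arrays only.

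**Figure D2:**
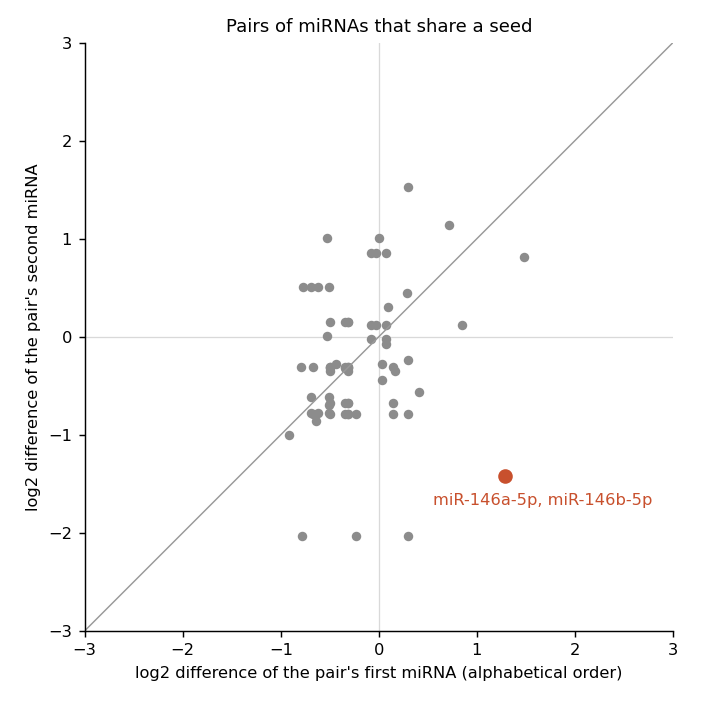
Log2 difference (hypoxia minus normoxia) of both members of the 70 pairs of miRNAs with the same seed, detected on both arrays; the diagonal line marks equal differences and the axes show the members in alphabetical order. The pair of miR-146a-5p (1.29) and miR-146b-5p (−1.42) is the farthest from the diagonal, and the median gap of the other 69 pairs was 0.37.

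miR-132-3p had a log2 difference of 0.070 ± 0.052 (SE over spots), or 1.05-fold. Its brighter probe had 13 kept spots between 139 and 174 in normoxia, with a median of 159, and 14 kept spots between 100 and 161 in hypoxia, with a median of 134. The groups of spots overlapped. The dimmer probe had a normoxic mean of 67.7 ± 9.53 (SD over 14 spots) and a hypoxic mean of 56.7 ± 10.4 (SD over 15 spots), also with overlap. The 2 probes gave normalized log2 differences of 0.077 and 0.062. The sign of this small difference depended on the scaling: it was −0.25 without normalization and −0.12 with the hybridization spike-ins, against 0.68 with the 75th percentile of all probes. Relative to the median of the 180 miRNAs it was 0.020, which scaling by any single factor leaves as it is. After quantile normalization it was 0.067, so that miR-132-3p lay in the middle of the detected miRNAs. Of the 180, 87 had a larger difference and 92 a smaller one.

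miR-155-5p was not detected by the rule used here, and no fold is given. Its brighter probe had 15 spots between 11.002 and 19.9 in normoxia, with a median of 15.0, and 15 spots between 3.41 and 15.5 in hypoxia, with a median of 8.85. The spots overlapped, and most hypoxic spots were below the lowest normoxic one. Of these spots 6 of 15 were well above background in normoxia and 1 of 15 in hypoxia. Mean signals were 15.3 ± 3.07 and 8.37 ± 2.83 (SD over 15 spots each), the first close to the lowest signal of a detected probe in normoxia (14.5) and the second below that in hypoxia (13.5). None of the dimmer probe's spots was well above background, and its mean was 3.01 ± 1.47 in normoxia (SD over 14 spots) and 1.09 ± 3.57 in hypoxia (SD over 15 spots). The software's own call, which is more lenient, counted miR-155-5p as detected in normoxia and not in hypoxia. miR-155-5p was therefore a low signal in these exosomes under both conditions, and its difference was not measurable.

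The opposite arms of the hairpins and the cluster partner were examined next. Of a hairpin's arms, usually 1 is kept and the other degraded. miR-146a-3p, miR-146b-3p, miR-155-3p, miR-132-5p, miR-212-3p and miR-212-5p together had 14 probes with 180 spots per array. None of the kept spots, 179 in normoxia and 173 in hypoxia, was well above background. Probe means lay between −3.24 and 3.30 in normoxia and between −3.25 and 2.17 in hypoxia, and the brightest single spots were at 11.29 and 11.499. For miR-146a, miR-146b and miR-132 the arm with detected signal was thus the one described above, for miR-155 neither arm was detected, and miR-212-3p was not detectable here while miR-132-3p was. Since brightness differs between probes, this does not rank the amounts of miR-132 and miR-212.

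Among the 180 miRNAs detected on both arrays, 29 were at least 2-fold higher in hypoxia (16.1%) and 25 at least 2-fold lower (13.9%). The 3 members measured held 1 in each class and 1 in neither. For miR-146a-5p, 22 of the 180 had a larger difference and 157 a smaller one. For miR-146b-5p, 164 had a larger difference and 15 a smaller one. The miR-146 pair therefore lay toward opposite ends of the distribution and miR-132-3p in its middle.

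**Figure D3:**
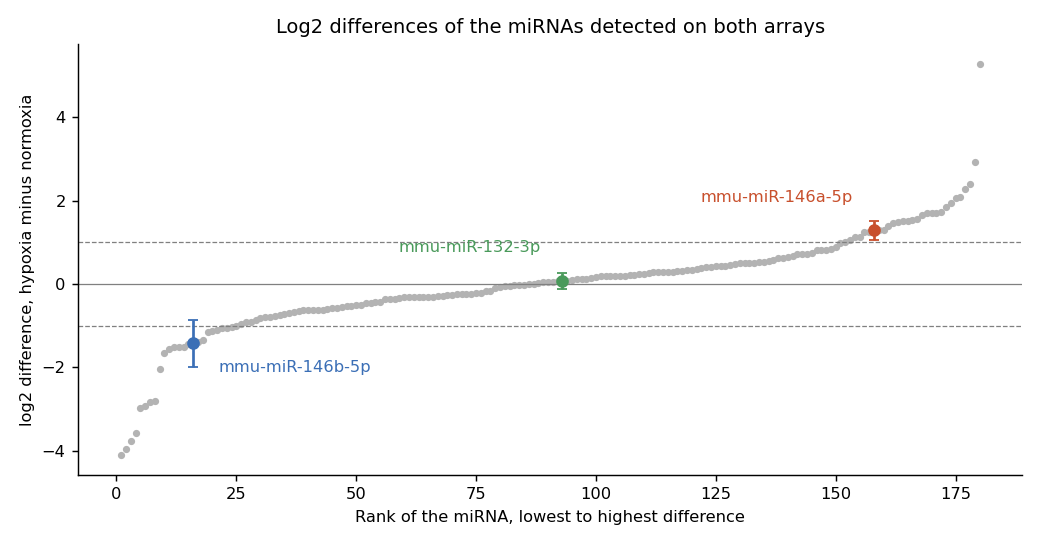
Log2 difference (hypoxia minus normoxia) of the 180 miRNAs detected on both arrays, in order from lowest to highest; coloured points are the members with the SD over spots as bars, and dashed lines mark 2-fold. miR-146b-5p (−1.42) and miR-146a-5p (1.29) lie beyond the 2-fold lines on opposite sides, and miR-132-3p (0.070) lies in the middle.

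The miRNAs whose log2 difference over the 2 arrays was closest to that of each member were also listed. For miR-146a-5p they were miR-3473a (1.30), miR-224-5p (1.31) and miR-324-3p (1.26). For miR-146b-5p they were miR-1897-5p (−1.43), miR-6366 (−1.39) and miR-18a-5p (−1.34). For miR-132-3p they were miR-15a-5p (0.075), miR-183-5p (0.064) and miR-342-3p (0.051). With 1 array per condition, likeness is only a near-equal difference.

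The directions were then followed through 6 scalings of the arrays. miR-146a-5p was higher in hypoxia under all 6, from 0.97 without normalization to 1.90 with the 75th percentile of all probes, and past 2-fold in 5 of them. miR-146b-5p was lower under all 6, from −1.74 without normalization to −0.81 with the 75th percentile of all probes, and past 2-fold in 5. Relative to the median of the 180 miRNAs, miR-146a-5p lay 1.24 above it under each scaling by a single factor and 1.21 above it after quantile normalization. miR-146b-5p lay at −1.47 and −1.40 relative to that median. Under normexp both kept their direction at less than 2-fold, at 0.81 and −0.42.

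**Figure D4:**
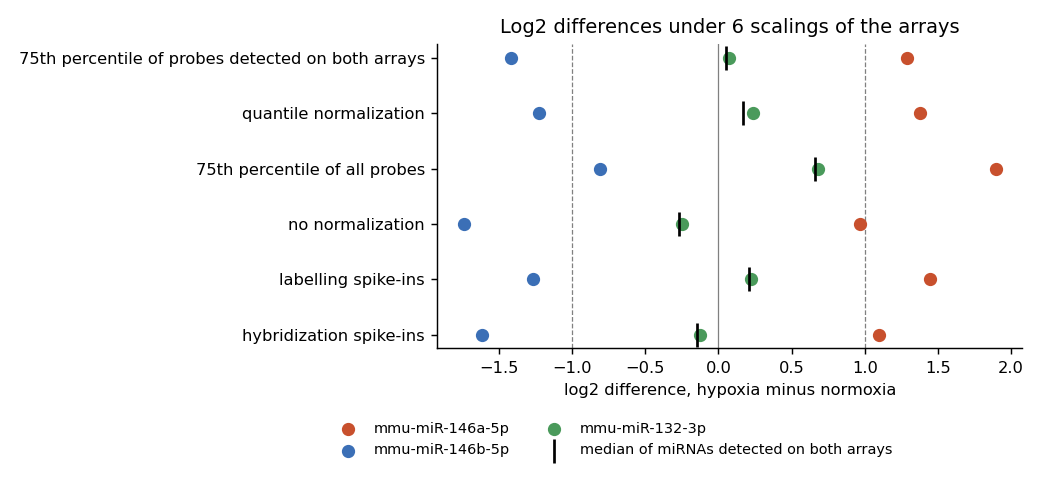
Log2 difference (hypoxia minus normoxia) of the 3 members detected on both arrays under 6 scalings of the arrays; the vertical black mark is the median of the 180 miRNAs and dashed lines mark 2-fold. miR-146a-5p stays to the right of 0 (0.97 to 1.90), miR-146b-5p to the left (−1.74 to −0.81), and miR-132-3p stays beside the median on both sides of 0.

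Other miRNAs known to regulate immune responses were read alongside, from a list of 22. It holds, for example, miR-21a-5p, which is induced in many inflammatory settings, miR-125b-5p, which targets the TNF mRNA, and miR-223-3p, which is highly expressed in neutrophils. Of the 22, 15 were detected on both arrays, 2 in normoxia only, 1 in hypoxia only and 4 on neither, where 9.57% of all miRNAs on the array were detected on both. None of the 15 was 2-fold apart, beside 16.1% higher and 13.9% lower among all 180, and the median was 0.037, beside 0.050 for all 180. The range was from −0.69 for miR-17-5p to 0.44 for miR-27b-3p, and both miR-146 members lay outside it. Under normexp the range was from −0.68 to 0.33. There miR-146a-5p, at 0.81, lay above it, and miR-146b-5p, at −0.42, lay inside it. With the 75th percentile of all probes 2 of the 15 were at least 2-fold higher, and without normalization 1 was at least 2-fold lower. miR-34a-5p was detected in hypoxia only and was at least 1.65-fold higher. Such a bound sets the brighter signal against the lowest detected signal of the dim array or the dim probe's own, whichever is higher. miR-223-3p and miR-126a-3p were detected in normoxia only and were at least 1.40-fold and at least 1.24-fold lower. These bounds hold for the 75th percentile over probes detected on both arrays and are not given for the other scalings. At the detected probe of miR-34a-5p the kept spots overlapped before scaling, with the lowest hypoxic spot at 9.49 and the highest normoxic spot at 18.6. At those of miR-223-3p and miR-126a-3p they did not overlap. miR-9-5p, miR-147-3p, miR-181a-5p and miR-187-3p had no kept spot above the lowest detected signal in either condition.

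**Figure D5:**
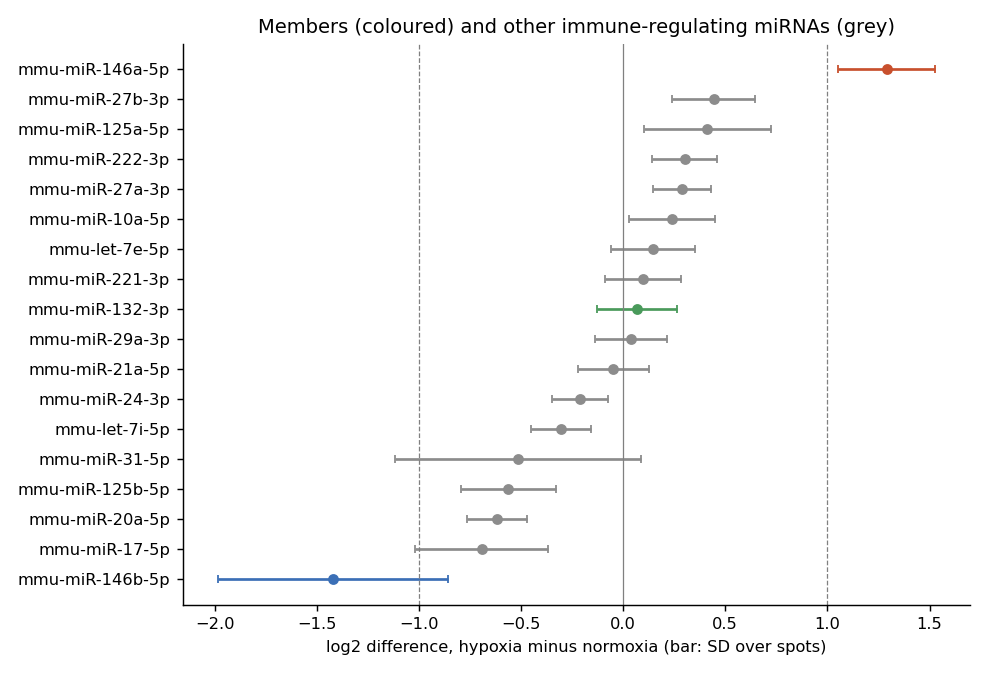
Log2 difference (hypoxia minus normoxia) of the 3 members detected on both arrays (coloured) and of the 15 other immune-regulating miRNAs detected on both (grey), with the SD over spots as bars and dashed lines at 2-fold. The grey points lie between −0.69 and 0.44, with miR-146b-5p (−1.42) below and miR-146a-5p (1.29) above all of them.

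The miR-146 and miR-155 families are also abundant in blood cells, so marker miRNAs of other cell types were read from the same arrays. Of 8 miRNAs typical of stromal cells, 7 were detected on both arrays and miR-145a-5p on neither. The 7 had a median log2 difference of 0.20, from −0.56 to 1.13. Only miR-214-3p, at 1.13 from 1 probe, was 2-fold apart, in the direction of miR-146a-5p. With the 75th percentile of all probes 3 of the 7 were so. Without normalization, with the hybridization spike-ins or under normexp 0 were. Summed signals, here and for the marker lists below, were taken before scaling. That of the brighter probes of the 8 was 13477 in normoxia and 11735 in hypoxia. Most of it came from miR-22-3p alone, at 10180 and 9564. Without normalization the median log2 difference was −0.11 for the 7 and −0.27 for all 180. The lower sum therefore does not show a loss relative to the other miRNAs. Of 4 leukocyte markers none was detected on both. miR-223-3p was detected in normoxia only, at 23.6 ± 4.10 (SD) against 3.20 ± 2.17 in hypoxia at its brighter probe, and miR-142a-3p, miR-142a-5p and miR-150-5p had no spot well above background. The summed signal of the brighter probes of the 4 was 33.8 in normoxia and 6.002 in hypoxia. Of 4 erythroid markers, miR-451a was lower in hypoxia with a log2 difference of −3.76 that rests on 1 probe. Its other probe was at 215 in normoxia and, not detected, at 11.8 in hypoxia. miR-144-3p was detected in normoxia only, and miR-144-5p and miR-486a-5p were on neither array. The summed signal of the 4 was 478 in normoxia and 33.1 in hypoxia. Of the endothelial markers, miR-126a-3p was detected in normoxia only and miR-126a-5p on neither array, with a summed signal of 24.4 in normoxia and 4.18 in hypoxia. The blood-cell markers with signal were thus lower in hypoxia, in the direction of miR-146b-5p and opposite to that of miR-146a-5p. Their part in the difference of either was not tested.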

How the data were processed

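RNA of exosomes from normoxic and hypoxic mBMSCs was hybridised to Agilent mouse miRNA arrays, 1 per condition. The study's methods name Agilent's miRNA labelling kit, whereas the labels describe reverse transcription of total RNA. Feature Extraction 11.5.1.1 was the authors' image software, per the file headers. Its processed signal, as deposited, is an intensity on a linear scale from which background and a spatial trend were subtracted, with no normalization between arrays. The deposited series table held the same intensity for all 58594 spots of each array (largest absolute difference 0). The other deposited columns used were flags per spot, the raw median pixel intensity of the spot and of its surroundings, and the software's summed intensity per miRNA. The study normalized with GeneSpring GX, and its discussion names quantile normalization. Those values were not used, and the main scaling here is a different one.

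A spot with at least 1 of 4 outlier flags was dropped (5 of the members' 120 spots in normoxia, 2 in hypoxia), and the kept spots of a probe were averaged. Arrays were scaled to the 75th percentile over probes detected in both conditions, and a miRNA's log2 difference averages its probes of that kind, and 2-fold, the study's threshold, was used to count. Alternatives were quantile normalization, the 75th percentile of all probes, no normalization, labelling or hybridization spike-ins, normexp (limma 3.58.1, R 4.3.3), other summaries of spots and probes, other filters, the software's sum and the series table. Normexp used the median pixel signal, since the files used here hold no mean pixel signal. Scripts ran in Python 3.11.15 and were tested on simulated data.

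The named miRNAs were the members, the other arms of their hairpins with miR-212, every miRNA with a member's seed, the 3 closest in log2 difference to each member, the lists and miR-210-3p. The members and lists were chosen with earlier results of these data known.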

Additional observations from a re-analysis of the deposited data

How the results depend on the processing

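No paired analysis was possible because the conditions have 1 array each, without replicates to pair or to leave out. The gap between miR-146a-5p and miR-146b-5p and the count of the 4 miRNAs detected on both arrays were chosen after seeing the data. The series table equals the scanner signal and says nothing about stability. With the 75th percentile taken over all probes, the arrays gave 1.90 for miR-146a-5p, −0.81 for miR-146b-5p and 0.68 for miR-132-3p on the log2 scale, with 58 miRNAs at least 2-fold higher and 10 lower. Without normalization miR-146a-5p was at 0.97 and miR-132-3p changed sign, to −0.25, as it did with the hybridization spike-ins, to −0.12, and when all spots of a probe were required to pass detection, to −0.030. Normexp gave 0.81 for miR-146a-5p, −0.42 for miR-146b-5p and 1.23 for the gap, with 13 higher and 11 lower. With no filter on dim probes miR-155-5p had a value of −0.85, from probes not detected on either array, and 124 miRNAs were higher and 225 lower, since 802 then enter. The software's summed signal gave 39 lower. Under that stricter requirement miR-146b-5p was detected in normoxia only, with a bound of −1.52, so that 2 of the 4 were measured on both arrays in place of 3. The cause of the moves under normexp and between scalings was not tested. Relative to the median of the 180 miRNAs, the scalings by 1 factor give equal values; that median moved from 0.050 to 0.66 with the 75th percentile of all probes and to −0.27 without normalization. Signal over background limits miR-155-5p and the opposite arms.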
